A study of Rattus norvegicus with 24 samples.

Results

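The thalamus was compared with the cerebral cortex in 6 sham-operated rats, from which both regions were sequenced, giving 12 of the 24 messenger RNA libraries of the study. Libraries were chosen by their labels (sham-operated control, tissue thalamus or cortex) and paired by the number of the rat, and the 12 libraries of rats with a lateral fluid-percussion injury were not used. The animals were adult male Sprague-Dawley rats that carried no transgene and received no impact. Each underwent the anaesthesia and the craniectomy over the left parietal lobe, with the dura left intact, and was killed 3 months later. The cortex piece was taken at the position that is perilesional in injured rats, and the thalamus piece lay on the same side, both cut by hand from 1 coronal slice. The tissue was therefore operated but not injured, and each piece holds many nuclei or layers and all cell types of its region. The libraries were stranded, made from polyadenylated RNA and sequenced on a NextSeq500. Each deposited value is a fragment count that was scaled by its library's size factor, below called a normalized count. Transcript lengths were not given, so differences between regions were taken within a gene. Sums over marker lists, and the share of Trh in a sum, are not corrected for length, so long or abundant transcripts weigh more in them.

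The thalamus is a deep forebrain relay. Most of its nuclei hold glutamatergic projection neurons that send axons to the cortex, and inhibition comes largely from the thalamic reticular nucleus, a sheet of GABAergic neurons around it. The cortex is built of layers, with glutamatergic pyramidal neurons that project within the cortex and to deeper targets and with several classes of local GABAergic interneurons. Thalamus and cortex arise from different parts of the forebrain, the diencephalon and the telencephalon, and the transcription factors that pattern these parts stay on in many adult neurons.

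The 12 libraries held 31798255 to 47460450 fragments, and 15582 loci with a gene name and a mean normalized count of at least 10 were tested. Levels were compared by limma on log2(normalized count + 1) with the rat as a block, and a locus was called at a Benjamini-Hochberg adjusted p under 0.05. Differences are thalamus minus cortex on that scale, which understates the difference of genes with low counts, so a positive value means a higher level in the thalamus. Values after ± are standard errors for log2 differences and SDs for normalized counts, over 6 rats. A locus with several gene names counts under each of them, and the loci of Foxp2, RGS3, Gria2, Gria3, Gria4, Grm8, Gabra5, Plcb1, Sox5 and Vwf each hold a further name. Positions follow the files. The methods name RGSC3.4 as the genome and the submitters' processing notes name Rnor_5.0, so the build of these positions is not certain.

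The labels fitted the markers, which were chosen with earlier results of these data known. In every rat the summed normalized count of 37 thalamic transcription factor loci was higher in the thalamus than in the cortex, with a range from 47215 to 66541 in the thalamus and from 8724 to 9755 in the cortex. The sum of 42 cortical transcription factor loci lay from 40071 to 49254 in the thalamus and from 116810.0 to 129901 in the cortex. The hand-cut pieces also carried transcripts of neighbouring structures, and 2 thalamus libraries stood apart from the rest. The thalamus libraries of rats 34 and 50 had sums of 96962 and 142418 over 14 choroid plexus markers, against 8416 to 12177 in the other 4 thalamus libraries and 4882 to 31926 in the cortex, where rat 26 was highest. None of the 14 markers was at or under 3 fragments in every library of either region. Thalamus of rat 34 also had the highest meningeal sum of the thalamus, 53845 over 12 markers against 14619 in the lowest library. In a principal component analysis of the tested loci, 81.5% of the variance lay on the first component, which separated the regions. The second held 4.13% and set these 2 thalamus libraries, at -28.9 and -27.4, apart from the other 4, which lay from 11.5 to 16.1. Some results that rest on them are given with and without rats 34 and 50. Differences given with all rats only can also shift without these rats, as for Aldh1a2 (-2.94 with all rats, -3.50 without) and Cdh1 (-3.49 with all rats, -3.81 without).

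The sums of 13 striatal markers ranged from 16870.2 to 30179.6 in the thalamus and from 27815 to 31508 in the cortex, and the thalamus of rat 26 was the highest of its region. Those of 12 habenular markers ranged from 5754 to 14988 in the thalamus and from 3033 to 3790.3 in the cortex, without overlap. The habenula is a small epithalamic structure on top of the thalamus, and a dissected thalamus can hold it. Sums of 18 hypothalamic marker loci lay from 2488 to 4576 in the thalamus and from 232 to 1134 in the cortex, where the cortex of rat 55 was far above the others, which reached 298. Trh alone made up 88.6% to 93.7% of the thalamus sums, and the sums of the other 17 loci overlapped between the regions, from 158 to 495 in the thalamus and from 221 to 1117 in the cortex. Of 14 hippocampal marker loci the sums were from 14339 to 18071 in the thalamus and from 19642 to 22366 in the cortex. The part that these structures had in the differences of single genes was not tested. In bulk tissue, fewer cells of a type and less RNA per cell cannot be told apart.

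**Figure D1:**
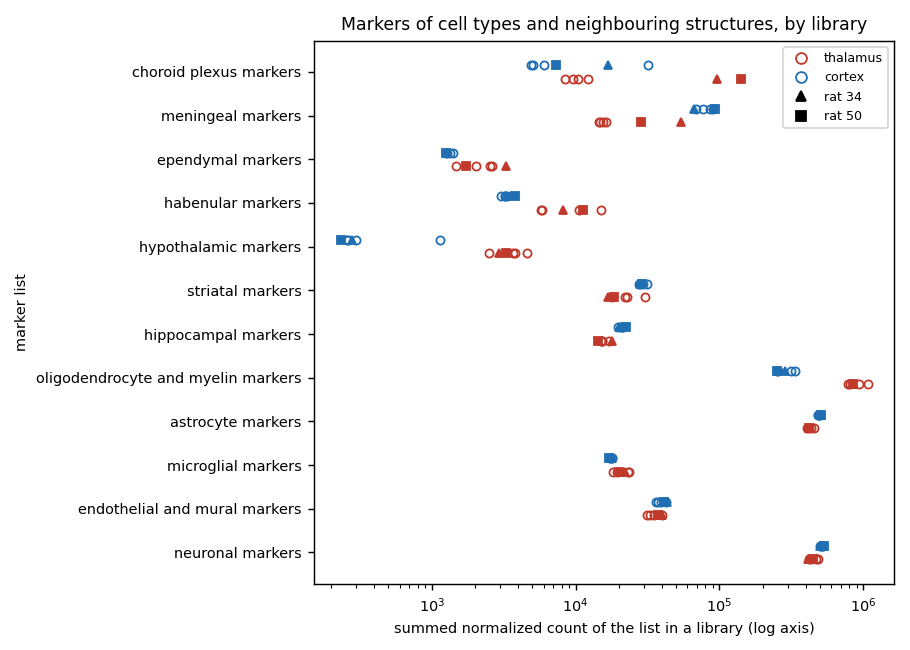
Summed normalized counts of marker lists in each library (log axis), with thalamus in red, cortex in blue, rat 34 as triangles and rat 50 as squares. The choroid plexus sums of the thalamus libraries of rats 34 and 50 (96962 and 142418) lie to the right of the other 4, and the oligodendrocyte and habenular sums of the regions do not overlap.

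Most of the loci tested differed between the regions. Of the 15582 loci 9810 (63%) were called, and 5332 (34.2%) were higher in the thalamus and 4478 (28.7%) in the cortex. A difference of at least 2-fold was reached by 1389 (8.91%) in the thalamus and 1262 (8.1%) in the cortex, and at least 4-fold by 537 (3.45%) and 511 (3.28%). All 6 thalamus values lay above all 6 cortex values at 3717 loci (23.9%), and the reverse held at 2993 (19.2%). The median difference over all loci was 0.03, with the middle 50% of loci from -0.27 to 0.33. These shares are the background against which the counts below are read. A list with members on both sides at about these shares differed no more often than the loci tested in general. Across loci, libraries of the same region correlated at 0.984 or more and libraries of different regions at 0.923 or less.

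**Figure D2:**
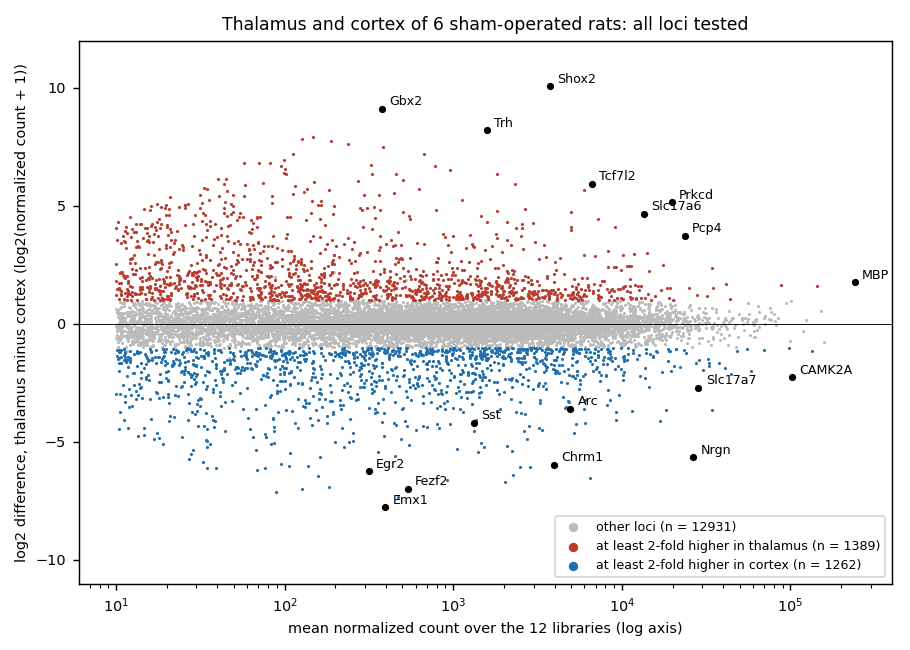
Log2 difference, thalamus minus cortex, of each of the 15582 loci against its mean normalized count over the 12 libraries (log axis), with loci called at 2-fold or more in red (1389, thalamus) and blue (1262, cortex). The largest differences reach 10.07 for Shox2 and -7.76 for Emx1, and genes with high counts such as Prkcd, Slc17a6, Nrgn and CAMK2A lie far from 0.

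The largest difference in favour of the thalamus was at Shox2, a homeobox transcription factor of thalamic neurons, whose locus is listed at chr2:183467052-183932344. Its normalized counts ranged from 6450.4 to 8450.4 in the thalamus (median 7392) and from 4.54 to 8.61 in the cortex (median 5.90). Every thalamus library thus lay far above every cortex library (log2 difference 10.07, standard error 0.13, adjusted p = 8.68e-12), and this and every other adjusted p comes from limma with Benjamini-Hochberg adjustment. Gbx2, a homeobox factor that the thalamus expresses from early development on, at chr9:96754120-96756543, ranged from 617 to 943 in the thalamus (median 724) and from 0 to 1.89 in the cortex (median 0). The cortex value rests on 3 fragments in all, and the thalamus mean was 1505 times as high, with a counting interval of 498 to 7058. Trh, the precursor of thyrotropin-releasing hormone and a member of the hypothalamic list, ranged from 2329.9 to 4080.1 in the thalamus (median 3186) and from 6.00 to 17.0 in the cortex (median 9.94) (log2 difference 8.2, standard error 0.21, adjusted p = 3.07e-10). Its lowest thalamus library lay far above its highest cortex library.

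The other 9 of the 12 largest thalamic differences included several regulators with few or no fragments in the cortex. Isl1, a LIM homeobox factor, had 2 fragments over all cortex libraries and 243 to 433 normalized counts in the thalamus, where rat 26, the rat with the highest striatal sum, was highest. The thalamus mean was 1035 times as high, with a counting interval of 237 to 7079.6. Six3, a homeobox factor also on the striatal list, ranged from 109 to 247 in the thalamus. It was lowest in rat 38 and held 4 fragments in the cortex (log2 difference 6.93, standard error 0.37, adjusted p = 5.70e-08). POU4F1, a POU-domain factor and the defining marker of habenular neurons, had 3 fragments in the cortex. Its thalamus values spread widely, from 103 in rat 26 to 730.3 in rat 38, and the thalamus mean was 720.2 times as high, with a counting interval of 249 to 3526.

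Nhlh2, a basic helix-loop-helix factor on the same habenular list, ranged from 573 to 909 in the thalamus (median 801) and from 1.12 to 7.55 in the cortex (median 3.31), and Irx2 (7.19 ± 0.36) belongs to the Iroquois homeobox family. Foxb1, a forkhead factor, had no fragment in any cortex library and 87.8 to 141 in the thalamus, so its thalamus mean was at least 222-fold higher than the limit of 3 fragments over the cortex group. Smpx, a small muscle protein gene, rested on 1 cortex fragment and was 1774 times as high, with a counting interval of 264 to 58012. Abhd12b, with 3 cortex fragments, was 329 times as high, with a counting interval of 107 to 1521. RGD1561875 (7.64 ± 0.38), known by its locus name, completed the list.

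In the other direction the largest difference was at Emx1, a homeobox factor of the dorsal telencephalon, listed at chr4:181547446-181565629. Its normalized counts lay between 719 and 890.2 in the cortex (median 784) and between 0 and 5.31 in the thalamus (median 3.36). No library of the thalamus came near the cortex range (log2 difference -7.76, standard error 0.30, adjusted p = 5.60e-09). Fezf2, the zinc finger factor that specifies subcortically projecting neurons of the deep layers, at chr15:16849843-16858715, lay between 933 and 1165 in the cortex (median 1072) and between 4.20 and 10.5 in the thalamus (median 8.24) (log2 difference -6.99, standard error 0.15, adjusted p = 1.37e-10). For both, the highest thalamus library held a small fraction of the lowest cortex library.

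Kcnv1, a silent potassium channel subunit, and Lamp5, a lysosome-associated membrane protein of cortical neurons and of a class of interneurons, were both on this list. Kcnv1 lay between 3499 and 4737 in the cortex (median 3735) and between 18.8 and 99.3 in the thalamus (median 36.8), and Lamp5 between 11902 and 13609 in the cortex (median 13121) and between 74.2 and 310.3 in the thalamus (median 151). Both varied more between thalamus libraries, with an SD of 0.971 and 0.872 log2 units, than between cortex libraries, with 0.19 and 0.0785. Egr2, an immediate early zinc finger factor, lay between 220.4 and 877 in the cortex (median 709.9) and between 2.50 and 23.9 in the thalamus (median 4.22) and was the member with the widest spread in the cortex. The remaining 6 were Inpp5d (-7.33 ± 0.23), an inositol phosphatase of immune signalling, Tpte2 (-7.11 ± 0.27), a phosphatase-like gene with 2 fragments in the thalamus, RGD1565367 (-7.0 ± 0.25), Mmp9 (-6.89 ± 0.45), a matrix metalloproteinase, Lyzl4 (-6.44 ± 0.32), a lysozyme-like gene, and Ovol2 (-6.18 ± 0.32), a zinc finger factor. For Tpte2 the cortex mean was 468 times as high, with a counting interval of 141 to 4213. Inpp5d has another locus listed over the same interval, which was cortical too but by less (log2 difference -1.78), so the counts of the separate loci are uncertain.

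**Figure D3:**
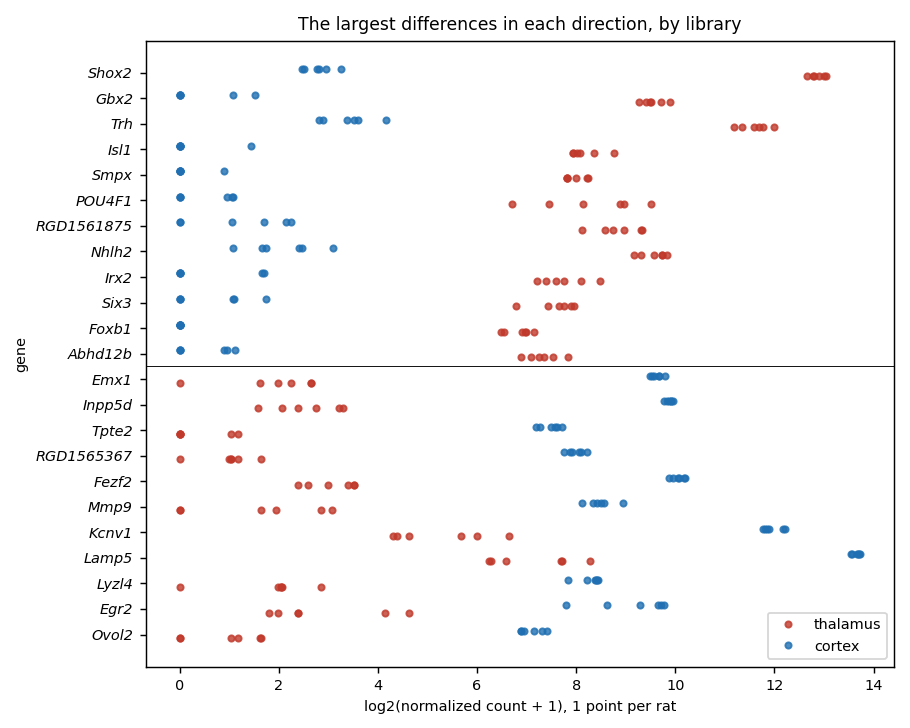
Values of 23 genes with the largest differences, the upper 12 higher in the thalamus and the lower 11 in the cortex, as log2(normalized count + 1), with 1 point per rat, thalamus in red and cortex in blue. The regions do not overlap for any of the 23 genes, and 5 of the first 12 have cortex libraries with no fragment in most rats.

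Among 38 transcription factors of the thalamus and its neighbours, 30 passed the filter on low values, and 25 of them were higher in the thalamus against 34.2% of all loci tested, with a median of 4.29 against 0.03 for all loci. A member that passed only through the region where it is high had to differ, so the count describes the list and tests nothing. Tcf7l2, the factor through which Wnt signals reach the genome in thalamic neurons, ranged from 11268 to 15813 in the thalamus (median 12722) and from 185 to 264 in the cortex (median 203) (log2 difference 5.94, standard error 0.094, adjusted p = 2.13e-11). All 6 thalamus libraries held many times the highest cortex value. Lhx9, a LIM homeobox factor of caudal thalamus, ranged from 1354 to 1787 in the thalamus (median 1545) and from 10.1 to 20.9 in the cortex (median 13.5) (log2 difference 6.69, standard error 0.15, adjusted p = 1.42e-10). The Iroquois genes moved together, with Irx1 (6.58 ± 0.24), Irx2 (7.19 ± 0.36), Irx3 (5.14 ± 0.30), Irx5 (5.47 ± 0.43) and Irx6 (1.64 ± 0.27). The Zic zinc finger genes Zic2 (2.14 ± 0.084), Zic4 (3.81 ± 0.072), Zic1 (4.12 ± 0.12) and Zic5 (4.46 ± 0.10) were higher in the thalamus.

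Barhl2 (5.77 ± 0.34), Lef1 (3.74 ± 0.092), Rora (1.81 ± 0.14), the orphan nuclear receptor gene Esrrb (1.99 ± 0.13) and Ebf3 (2.18 ± 0.31) were higher in the thalamus as well. Lhx8 and Otx2 need their libraries named. Lhx8, a factor of basal forebrain cholinergic neurons, had 121 in the thalamus of rat 26 and 12.4 to 45.1 in the other 5. Otx2, also a choroid plexus marker, was highest in the thalamus libraries of rats 34 and 50, at 267 and 349, and its difference was 4.53 with all rats and of similar size without these rats (log2 difference 4.39, adjusted p = 2.89e-04). Lhx2, Nr4a3 and Tal2 went the other way. Lhx2, which astrocytes and cortical progenitors also use, ranged from 419 to 549 in the thalamus (median 520.5) and from 1423 to 1876 in the cortex (median 1642) (log2 difference -1.73, standard error 0.076, adjusted p = 1.48e-08). The Tal2 locus with the highest counts, a helix-loop-helix factor of midbrain and thalamic GABAergic lineages, lay between 60.9 and 374 in the cortex (median 116) and between 0 and 30.5 in the thalamus (median 9.60) (log2 difference -4.36, standard error 0.40, adjusted p = 4.46e-06). Gata2 (log2 difference -0.11, standard error 0.095, adjusted p = 0.352) and Tal1 (log2 difference -0.22, standard error 0.10, adjusted p = 0.0808), from the same lineages, did not pass the test. The other 8, among them Lhx1, Lhx5, Sox14 and Gata3, were too low to test or had no locus.

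Of 39 cortical transcription factors tested, 37 were higher in the cortex, where 28.7% of all loci were, none was higher in the thalamus, and the median difference was -1.7. At least 2-fold differences were found at 27. The members were chosen as cortical factors, so these counts describe the list and test nothing. Tbr1, the T-box factor of deep-layer glutamatergic neurons, lay between 4540.3 and 5545 in the cortex (median 4805) and between 55.7 and 131 in the thalamus (median 65.6) (log2 difference -6.04, standard error 0.16, adjusted p = 3.44e-10). Neurod6, a helix-loop-helix factor of pyramidal neurons, lay between 2277 and 2950.4 in the cortex (median 2796) and between 45.5 and 86.4 in the thalamus (median 61.5) (log2 difference -5.43, standard error 0.092, adjusted p = 3.20e-11). For both, the regions were apart by more than the whole spread of either. Bhlhe22 (-4.22 ± 0.13), Emx2 (-3.61 ± 0.11), Bcl11a (-2.87 ± 0.069), Mef2c (-2.66 ± 0.083), BCL11B (-2.63 ± 0.29) and Satb1 (-2.48 ± 0.067) followed. The upper-layer factors Cux2 (-0.62 ± 0.058), Cux1 (-0.24 ± 0.052) and Pou3f2 (-2.08 ± 0.083) ranged widely in size. The interneuron factors of the medial and caudal ganglionic eminences included Lhx6 (-3.19 ± 0.31), Dlx1 (-1.72 ± 0.15), Dlx2 (-1.25 ± 0.17) and Dlx5 (-1.07 ± 0.26). Rorb, which marks layer IV and is also used in sensory thalamus, ranged from 4959 to 7239.8 in the thalamus (median 5698) and from 5105 to 6757 in the cortex (median 5408) and did not pass the test (log2 difference 0.08, standard error 0.082, adjusted p = 0.44), nor did Sox5 (log2 difference -0.07, standard error 0.066, adjusted p = 0.385). 

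Further genes of thalamic projection neurons, among them the transcription factor gene Zfhx3, were tested at 32 loci, and 28 were higher in the thalamus, with a median of 2.58. They were picked as thalamic genes, so the count describes the list and tests nothing. Prkcd, the delta isoform of protein kinase C and a marker of relay nuclei, ranged from 30458 to 46532 in the thalamus (median 36846) and from 908 to 1183 in the cortex (median 1148) (log2 difference 5.15, standard error 0.06, adjusted p = 7.13e-12). Synpo2, an actin-binding protein gene, ranged from 9269 to 14853 in the thalamus (median 11509) and from 182 to 276 in the cortex (median 223) (log2 difference 5.69, standard error 0.095, adjusted p = 2.89e-11). Calb2, the calcium buffer calretinin of midline nuclei, ranged from 6832 to 11581 in the thalamus (median 9960.0) and from 295 to 411 in the cortex (median 356) (log2 difference 4.73, standard error 0.10, adjusted p = 1.18e-10). The regions did not overlap for any of these 3. Ntng1 (4.12 ± 0.06), a membrane-anchored netrin of thalamocortical axons, Slitrk6 (4.8 ± 0.14), Plekhg1 (4.45 ± 0.10), Vav3 (4.3 ± 0.15), Rgs16 (3.99 ± 0.06), Cbln1 (3.81 ± 0.18), Ramp3 (3.47 ± 0.062) and Zfhx3 (3.21 ± 0.14) were further members with large differences. Adarb1 (2.36 ± 0.066), which encodes an RNA-editing enzyme, had a mean of 57156 ± 6344 in the thalamus and 11065 ± 662 in the cortex. Exceptions were Cbln2 (-0.52 ± 0.084) and Clmp (-0.21 ± 0.057), both higher in the cortex, and Tnnt1 (log2 difference -0.04, standard error 0.40, adjusted p = 0.938) and Col27a1 (log2 difference -0.20, standard error 0.093, adjusted p = 0.0902), which did not pass.

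Among 30 cortical neuron genes tested, 28 were higher in the cortex, with a median of -2.2. As these were picked as cortical genes, the count describes the list and tests nothing. Nrgn, the postsynaptic calmodulin-binding protein neurogranin, lay between 41624 and 62038 in the cortex (median 52431) and between 701 and 1871 in the thalamus (median 983) (log2 difference -5.64, standard error 0.18, adjusted p = 1.29e-09). CAMK2A, the alpha subunit of the calcium/calmodulin kinase of excitatory synapses, lay between 163419 and 176665 in the cortex (median 167406) and between 32806 and 40040.3 in the thalamus (median 34945) (log2 difference -2.25, standard error 0.052, adjusted p = 1.94e-10). The lowest cortex library exceeded the highest thalamus library for both. Itpka (-5.17 ± 0.20), an inositol trisphosphate kinase of dendritic spines, Gda (-4.63 ± 0.21), a guanine deaminase, Baiap2 (-4.26 ± 0.20), Rtn4rl2 (-4.31 ± 0.30), Nptx1 (-4.06 ± 0.19), Hpca (-3.69 ± 0.21), Crym (-3.69 ± 0.15) and Ddn (-3.66 ± 0.11) belong to the same list, many of them postsynaptic. Cck, the peptide cholecystokinin, ranged from 6061 to 9696 in the thalamus (median 7381) and from 4092 to 6836 in the cortex (median 5467) and was higher in the thalamus (log2 difference 0.42, standard error 0.064, adjusted p = 1.90e-04), as was Nptx2 (0.61 ± 0.073), a secreted pentraxin.

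Markers of single cortical layers behaved unevenly. Of 28 tested, 15 were higher in the cortex and 7 in the thalamus, against 28.7% and 34.2% of all loci. Cplx3 (-2.13 ± 0.093) of the subplate layer, OTOF (-2.16 ± 0.079), Rasgrf2 (-2.17 ± 0.064), Rprm (-1.81 ± 0.13) and Kcnip2 (-1.65 ± 0.071) were higher in the cortex. Drd5, a dopamine receptor gene, ranged from 73.7 to 108 in the thalamus (median 90.7) and from 5.67 to 20.5 in the cortex (median 13.6) (log2 difference 2.73, standard error 0.23, adjusted p = 2.00e-06). Foxp2, a forkhead factor of corticothalamic layer VI neurons, ranged from 1188 to 2106 in the thalamus (median 1641) and from 229 to 370.5 in the cortex (median 328) (log2 difference 2.37, standard error 0.14, adjusted p = 1.48e-07). Ntsr1, a neurotensin receptor used as a layer VI marker in mice, ranged from 77.5 to 124 in the thalamus (median 105) and from 14.5 to 40.6 in the cortex (median 30.7) (log2 difference 1.89, standard error 0.19, adjusted p = 8.88e-06). In these rats all 3 layer markers were higher in every thalamus library than in any cortex library. Oprk1 (1.02 ± 0.13) and Scnn1a (0.74 ± 0.21) were higher in the thalamus too.

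**Figure D4:**
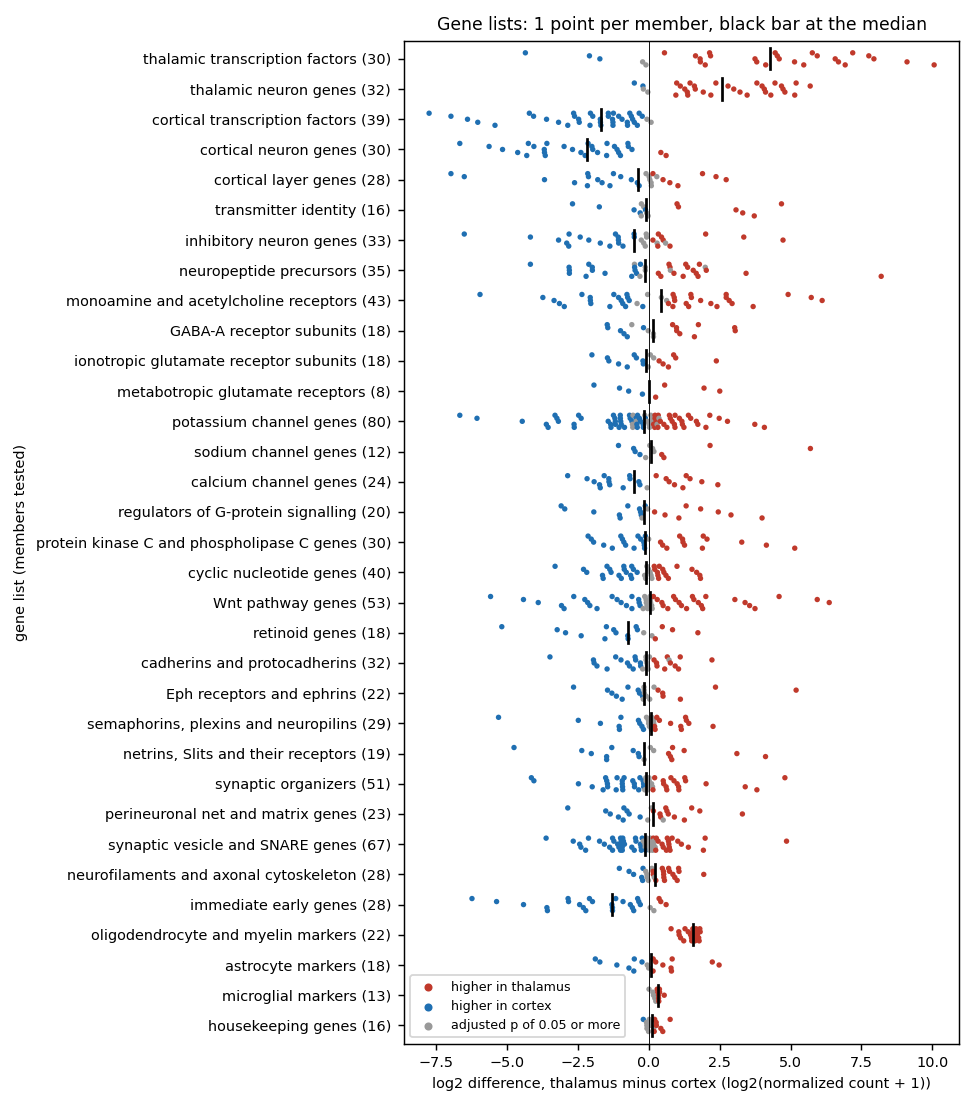
Log2 differences, thalamus minus cortex, of the members of 33 gene lists, with 1 point per member tested, red for higher in the thalamus, blue for higher in the cortex and grey for an adjusted p of 0.05 or more. The black bar marks the list's median, which is 4.29 for thalamic transcription factors, -1.70 for cortical ones, 1.55 for oligodendrocyte genes and -1.29 for immediate early genes, while most receptor and channel families spread to both sides of 0.

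The vesicular glutamate transporters, which load glutamate into synaptic vesicles, divided the regions. Slc17a6 (VGLUT2) ranged from 23823 to 29859 in the thalamus (median 26202) and from 894 to 1278 in the cortex (median 1005) (log2 difference 4.68, standard error 0.062, adjusted p = 8.68e-12). Slc17a7 (VGLUT1) lay between 45390.4 and 51322 in the cortex (median 49635) and between 4464 and 9879.9 in the thalamus (median 7949.6) (log2 difference -2.7, standard error 0.14, adjusted p = 4.25e-08). No library of either region crossed into the range of the other for either gene, and within each rat the difference of Slc17a6 exceeded that of Slc17a7 by 7.38 ± 0.45 (SD) log2 units. Slc17a8 (VGLUT3) did not pass the test (log2 difference -0.27, standard error 0.45, adjusted p = 0.623).

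Promoter windows were read from RefSeq, build GRCr8, from 250 bases before to 50 after the start of a gene. The windows of this opposed pair are shown with that of Trh, the largest peptide difference, and of Neurod6, the pyramidal neuron factor, a choice made after the matches were seen. They run 5′ to 3′ on the strand of the gene, with matches on either strand in capitals to TCF/LEF letters (CTTTGAA or CTTTGAT), an E-box (CAGATG), the cyclic AMP response element (TGACGTCA) and EGR letters (GCGTGGGCG or GCGGGGGCG).
Slc17a6, chr1:110348197-110348496, plus strand: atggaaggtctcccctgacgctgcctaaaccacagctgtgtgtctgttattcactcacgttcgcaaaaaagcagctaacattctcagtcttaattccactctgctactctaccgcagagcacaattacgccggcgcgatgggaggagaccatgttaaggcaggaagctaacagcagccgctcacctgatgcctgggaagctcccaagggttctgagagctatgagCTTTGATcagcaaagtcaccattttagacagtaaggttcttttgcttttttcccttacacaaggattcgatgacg
Slc17a7, chr1:104785955-104786254, plus strand: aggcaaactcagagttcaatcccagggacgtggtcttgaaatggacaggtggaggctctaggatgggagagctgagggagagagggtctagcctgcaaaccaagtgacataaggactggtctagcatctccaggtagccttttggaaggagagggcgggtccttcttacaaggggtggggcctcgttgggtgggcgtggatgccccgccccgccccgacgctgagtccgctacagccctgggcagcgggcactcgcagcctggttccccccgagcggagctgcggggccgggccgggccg
Trh, chr4:126301713-126302012, minus strand: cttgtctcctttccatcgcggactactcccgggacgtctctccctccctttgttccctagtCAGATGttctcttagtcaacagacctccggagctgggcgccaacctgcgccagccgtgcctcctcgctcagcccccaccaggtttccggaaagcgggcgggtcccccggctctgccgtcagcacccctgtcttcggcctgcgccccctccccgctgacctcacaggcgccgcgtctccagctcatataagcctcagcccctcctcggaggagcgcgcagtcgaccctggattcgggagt
Neurod6, chr4:86180106-86180405, minus strand: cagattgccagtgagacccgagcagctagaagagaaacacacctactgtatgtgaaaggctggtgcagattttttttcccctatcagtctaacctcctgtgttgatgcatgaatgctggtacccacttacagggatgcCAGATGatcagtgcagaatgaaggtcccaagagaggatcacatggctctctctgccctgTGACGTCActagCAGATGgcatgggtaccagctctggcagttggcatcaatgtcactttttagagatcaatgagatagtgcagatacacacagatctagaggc
The Slc17a6 window holds 1 match, to CTTTGAT, beginning 25 bases before the start. That of Slc17a7 holds none of these letters. The Trh window has 1 E-box, 189 bases before the start, and the Neurod6 window has 2 E-boxes, 112 and 41 bases before the start, with a cyclic AMP response element between them at 53 bases.

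Of the single-name genes at least 4-fold higher in the thalamus, 323 of 514 had a window in the table, as did 320 of 486 in the cortex. The TCF/LEF letters occurred in 7.74% of the thalamic and 7.5% of the cortical windows, against 5.69% of the windows of all 10155 matched genes tested and 8.68% of all 27457 windows. The E-box stood in 16.4% and 16.6%, against 11.3% and 16.3%. EGR letters stood in 6.81% and 5.63%, against 6.25% and 3.3%. The cyclic AMP response element was in 3 thalamic windows (0.929%) and 9 cortical windows (2.81%), against 3.05% and 1.89%. Median GC content was 58% and 59% in the thalamic and cortical windows. A match is a description of letters and not a site.

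Genes that set a neuron's transmitter also differed. Choline acetyltransferase (Chat), which makes acetylcholine, ranged from 89.2 to 239.5 in the thalamus (median 198) and from 11.8 to 28.3 in the cortex (median 21.8) (log2 difference 3.07, standard error 0.22, adjusted p = 5.31e-07), and the choline transporter Slc5a7 from 365 to 1168 in the thalamus (median 816) and from 55.6 to 86.0 in the cortex (median 79.2) (log2 difference 3.31, standard error 0.19, adjusted p = 1.15e-07). The thalamus of rat 32 was lowest for both, and Slc5a7 is also on the habenular list, whose cells are partly cholinergic. Hdc (3.72 ± 0.39), which makes histamine, Ddc (0.99 ± 0.092) and Slc6a5 (1.04 ± 0.15), the neuronal glycine transporter, were higher in the thalamus, and Tph2 (-1.75 ± 0.28), which makes serotonin, in the cortex. The GABA genes differed little. Gad1 (-0.52 ± 0.12), a GABA-synthesizing enzyme, was higher in the cortex, whereas Gad2 (log2 difference -0.18, standard error 0.11, adjusted p = 0.183) and the vesicular transporter Slc32a1 (log2 difference -0.27, standard error 0.17, adjusted p = 0.194) did not pass the test.

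Markers of inhibitory neuron classes, tested at 33 loci, were higher in the cortex at 17 and in the thalamus at 9. Among all loci these shares were 28.7% and 34.2%. Sst, the peptide somatostatin of Martinotti cells, lay between 1764 and 3040.2 in the cortex (median 2489.6) and between 78.8 and 374 in the thalamus (median 115) (log2 difference -4.18, standard error 0.25, adjusted p = 1.50e-07). The regions were far apart. Kit (-2.83 ± 0.13), Crh (-2.82 ± 0.21), Npy (-2.12 ± 0.26) and Htr3a (-1.38 ± 0.11) were higher in the cortex. Pvalb, the calcium buffer of fast-spiking neurons in cortex and reticular nucleus, had a mean of 6181 ± 927 in the thalamus and 4529.9 ± 552 in the cortex and was higher in the thalamus (log2 difference 0.44, standard error 0.089, adjusted p = 0.0014). Vip (0.33 ± 0.089), Prox1 (3.35 ± 0.078) and Adarb2 (2.0 ± 0.095) were also higher there. Prox1 is on the hippocampal list too. Calb2 (4.73 ± 0.10), the largest thalamic difference of this list, is described above among genes of thalamic projection neurons. Which cells carried these transcripts was not tested.

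Neuropeptide precursors spread to both sides, 15 of 35 higher in the thalamus and 14 in the cortex, against 34.2% and 28.7% of all loci. Trh is described above. Scg2 (1.56 ± 0.051) and Vgf (1.37 ± 0.10), granins of dense-core vesicles, Nts (1.67 ± 0.34), Gal (1.78 ± 0.21) and Nmu (2.02 ± 0.16) were higher in the thalamus. So was Igf1 (1.3 ± 0.13), a growth factor gene that is counted in this list. Pdyn (-2.81 ± 0.31), the dynorphin precursor, Grp (-2.81 ± 0.15), Cartpt (-2.0 ± 0.15) and Adcyap1 (-1.55 ± 0.11) were higher in the cortex. Peptides whose cells lie in the hypothalamus were low and uneven. Hcrt, the orexin precursor, ranged from 6.22 to 51.3 in the thalamus (median 17.0) and from 0 to 1.89 in the cortex (median 0.559) (log2 difference 3.43, standard error 0.41, adjusted p = 3.51e-05). Oxt reached 193 in the thalamus of rat 26 and 539.8 in the cortex of rat 55 and did not pass (log2 difference 1.99, standard error 0.89, adjusted p = 0.0759), nor did Avp (log2 difference 0.76, standard error 0.67, adjusted p = 0.343), with 332 in that cortex library. The cortex of rat 55 also had the highest sum of the hypothalamic loci other than Trh, 1117, and the thalamus of rat 26 the highest of its region, 495. The part of hypothalamic tissue in these values was not tested. PENK, the enkephalin precursor, ranged from 790.1 to 3773 in the thalamus (median 1380.4) and from 1700.2 to 2348 in the cortex (median 2016) (log2 difference -0.51, standard error 0.25, adjusted p = 0.103), highest in the thalamus of rat 26.

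Receptors for monoamines and acetylcholine were divided member by member. Of 43 tested, 20 were higher in the thalamus and 19 in the cortex, against 34.2% and 28.7% of all loci. Adra2b, an alpha-2 adrenergic receptor, ranged from 728 to 1126 in the thalamus (median 1037) and from 4.47 to 28.3 in the cortex (median 14.3) (log2 difference 6.11, standard error 0.29, adjusted p = 2.70e-08). Chrm1, the M1 muscarinic receptor of pyramidal neurons, lay between 6974 and 8270.2 in the cortex (median 7977) and between 62.3 and 323 in the thalamus (median 117) (log2 difference -5.96, standard error 0.26, adjusted p = 1.39e-08). Neither gene had a library in the range of the other region. Chrna6, a nicotinic subunit, ranged from 233 to 315 in the thalamus (median 259) and from 2.15 to 8.58 in the cortex (median 4.03) (log2 difference 5.73, standard error 0.21, adjusted p = 4.68e-09). 

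The nicotinic subunits Chrna4 (2.4 ± 0.046) and Chrnb2 (1.5 ± 0.054) were higher in the thalamus and Chrna5 (-3.74 ± 0.25), Chrna7 (-0.82 ± 0.076) and Chrna2 (-0.92 ± 0.18) in the cortex. Chrnb4, which with Chrna3 forms the habenular receptor, ranged from 176 in the thalamus of rat 26 to 1036 in that of rat 38, against at most 19.3 in the cortex (log2 difference 4.91, standard error 0.30, adjusted p = 1.73e-07). Chrna3 (3.68 ± 0.19) had the same lowest and highest rats, which are also those of POU4F1 and of Gpr151, a habenular orphan receptor, at 228 and 1391. Chrm4 (-3.35 ± 0.17) and Chrm3 (-0.98 ± 0.063) were higher in the cortex and Chrm2 (0.85 ± 0.078) in the thalamus.

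Serotonin receptors divided likewise, Htr7 (2.19 ± 0.086), Htr2c (2.83 ± 0.17), Htr5b (2.94 ± 0.36) and Htr4 (1.82 ± 0.24) against Htr2a (-2.99 ± 0.12), Htr1a (-2.37 ± 0.12), Htr6 (-2.07 ± 0.15) and Htr1f (-0.78 ± 0.15). The adrenergic receptors Adra2c (-3.16 ± 0.22), Adra1d (-2.05 ± 0.093), Adra1a (-2.07 ± 0.068) and Adrb1 (-1.07 ± 0.07) were higher in the cortex. All 4 dopamine receptor genes tested, Drd1 (1.32 ± 0.083), DRD2 (0.91 ± 0.31), Drd3 (2.73 ± 0.22) and Drd5 (2.73 ± 0.23), were higher in the thalamus. DRD2 ranged from 127 to 786 in the thalamus (median 196) and from 115 to 129 in the cortex (median 123), and its highest library was the thalamus of rat 26, as for the striatal markers Adora2a (903 in rat 26, 369 at the median) and PENK. The regions overlapped at DRD2, where the thalamus of rat 55 lay within the cortex range.

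GABA-A receptor subunits assemble into chloride channels. Of 18 tested, 8 were higher in the thalamus and 6 in the cortex, against 34.2% and 28.7% of all loci. Gabra4, a subunit that pairs with Gabrd in extrasynaptic receptors of relay neurons, ranged from 16212 to 24189 in the thalamus (median 19536) and from 5789 to 7344 in the cortex (median 6356) (log2 difference 1.61, standard error 0.072, adjusted p = 1.65e-08). Gabrd ranged from 6092 to 8238 in the thalamus (median 7417) and from 3311 to 4055 in the cortex (median 3695) (log2 difference 0.98, standard error 0.073, adjusted p = 7.86e-07). Both were without overlap. Gabre (3.05 ± 0.29) and Gabrq (3.03 ± 0.19), neighbouring rare subunits, had the largest differences, and Gabrb2 (0.84 ± 0.10) and Gabrg3 (1.09 ± 0.11) followed. Gabra2 (-0.88 ± 0.084) and the locus that joins Gabra5 with an unnamed gene (-1.0) were higher in the cortex.

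Of 18 ionotropic glutamate receptor subunits, 9 were higher in the cortex and 6 in the thalamus, against 28.7% and 34.2% of all loci. The AMPA subunits were cortical, with GRIA1 (-1.07 ± 0.044), Gria2 (-2.01 ± 0.065) and Gria3 (-1.46 ± 0.073), apart from Gria4, which did not pass (log2 difference 0.05, standard error 0.06, adjusted p = 0.483). NMDA subunits divided, with Grin2a (-1.41 ± 0.11) and Grin2b (-0.44 ± 0.11) higher in the cortex and Grin2d (2.38 ± 0.062) and Grin2c (0.95 ± 0.05) in the thalamus. Grin2d ranged from 1537 to 1954 in the thalamus (median 1799) and from 281 to 403 in the cortex (median 336). All 6 thalamus values exceeded the cortex values. The 8 metabotropic receptors divided evenly. Grm4 (2.5 ± 0.14) was thalamic, and Grm5 (-0.72 ± 0.092), Grm8 (-1.04 ± 0.066) and Grm6 (-1.94 ± 0.21) cortical.

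Potassium channels formed the largest list, with 30 of 80 higher in the thalamus, 37 in the cortex and a median of -0.17. The shares of all loci were 34.2% and 28.7%. Kcnc2, a Kv3 subunit for fast firing, ranged from 25364 to 36597 in the thalamus (median 29294) and from 4732 to 5581 in the cortex (median 5440.0) (log2 difference 2.48, standard error 0.088, adjusted p = 3.23e-09). Kcnh3, an ether-a-go-go-like subunit of forebrain neurons, lay between 4177 and 6576 in the cortex (median 5626) and between 39.6 and 224 in the thalamus (median 81.2) (log2 difference -6.07, standard error 0.30, adjusted p = 2.93e-08). The regions were fully apart at both. Kcnj16 (4.08 ± 0.095), an inward rectifier, Kcnk16 (3.74 ± 0.51), Kcnn3 (2.77 ± 0.082), a calcium-activated SK subunit, and Kcnh8 (2.15 ± 0.15) were thalamic. Kcnh1 (-4.47 ± 0.11), Kcng1 (-3.62 ± 0.21), Kcns1 (-3.56 ± 0.26), Kcnj4 (-3.32 ± 0.17), Kcnq5 (-3.25 ± 0.047) and Kcnh7 (-2.48 ± 0.10) were cortical, Kcng1 and Kcns1 being silent modifiers of Kv2 channels. Within the Kv3 family Kcnc1 (0.40 ± 0.066) was higher in the thalamus and Kcnc4 (-1.19 ± 0.098) in the cortex. Kcnj13, a choroid plexus channel, was called in the cortex when all rats were used (log2 difference -2.64, standard error 0.91, adjusted p = 0.0273) and without rats 34 and 50 (log2 difference -4.66, adjusted p = 2.45e-07). Its thalamus values were uneven, 1069 and 1777 in rats 34 and 50 against 8.49 to 23.9 in the other rats.

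Of the pacemaker channels, which carry the hyperpolarization-activated current that times thalamic bursts, 3 are described here, not the whole family. Hcn4 ranged from 2475 to 3659 in the thalamus (median 2923) and from 112 to 190.4 in the cortex (median 158) (log2 difference 4.31, standard error 0.095, adjusted p = 1.42e-10). Every thalamus library held many times the highest cortex value. Hcn2 (0.97 ± 0.061) and Hcn3 (1.1 ± 0.079) were also higher in the thalamus. Low-threshold calcium channels were divided, with CACNA1G (1.45 ± 0.098) higher in the thalamus and Cacna1h (-1.93 ± 0.15) and Cacna1i (-1.74 ± 0.072) in the cortex. CACNA1G ranged from 7753 to 10918 in the thalamus (median 9301) and from 2754 to 4197 in the cortex (median 3294). High-voltage subunits included Cacna1e (-2.18 ± 0.097) and Cacna2d1 (-1.58 ± 0.083) on the cortical side and Cacna1c (0.90 ± 0.056) and Cacnb2 (1.32 ± 0.045) on the thalamic side. Scn7a, a sodium-sensing channel of glia and of circumventricular organs, ranged from 846 to 1883 in the thalamus (median 1063) and from 16.0 to 30.2 in the cortex (median 21.5) (log2 difference 5.7, standard error 0.14, adjusted p = 3.25e-10). Scn1a, a pore subunit of the sodium channel, did not pass (log2 difference 0.13, standard error 0.11, adjusted p = 0.318), and Scn3b (-1.07 ± 0.048) was higher in the cortex.

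Regulators of G-protein signalling, which shorten receptor signals by speeding GTP hydrolysis, were thalamic at 8 of 20 and cortical at 10. For this list and those below in this paragraph, the shares of all loci were 34.2% thalamic and 28.7% cortical. Rgs16 ranged from 8180.4 to 11484 in the thalamus (median 9332) and from 485 to 663 in the cortex (median 619) (log2 difference 3.99, standard error 0.06, adjusted p = 1.35e-11). Rgs14 lay between 1777 and 2318 in the cortex (median 1943) and between 163 and 323 in the thalamus (median 239) (log2 difference -3.1, standard error 0.13, adjusted p = 9.99e-09). Neither had an overlap. RGS3 (2.9 ± 0.056) and Rgs8 (2.45 ± 0.093) were thalamic, and Rgs18 (-2.97 ± 0.32), Rgs12 (-1.95 ± 0.077) and Rgs2 (-1.04 ± 0.075) cortical. In the protein kinase C and phospholipase C list, Prkcd was joined by Prkch (3.28 ± 0.067), Prkcq (2.05 ± 0.063), Dgkk (4.15 ± 0.38) and Plcb4 (1.92 ± 0.077) on the thalamic side and opposed by Prkca (-2.04 ± 0.053), Prkcb (-1.95 ± 0.065), Prkce (-0.82 ± 0.044) and Dgkh (-1.6 ± 0.16). In all 13 of 30 were thalamic and 16 cortical. Of 40 cyclic nucleotide genes 15 were thalamic and 18 cortical. Adcy8 (1.8 ± 0.083), Adcy7 (1.82 ± 0.11), Pde1c (1.68 ± 0.12) and Pde7b (1.52 ± 0.091) stood on the thalamic side and Pde1a (-3.31 ± 0.045), Pde2a (-2.2 ± 0.061), Adcy9 (-1.38 ± 0.074) and Adcy1 (-0.98 ± 0.076) on the cortical side.

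Wnt ligands act through Frizzled receptors and beta-catenin on TCF/LEF factors. Of 53 genes tested, 23 were higher in the thalamus and 19 in the cortex, against 34.2% and 28.7% of all loci. The median was 0.05. Among ligands, Wnt9b ranged from 2558 to 4723 in the thalamus (median 3606) and from 37.2 to 47.4 in the cortex (median 41.7) (log2 difference 6.36, standard error 0.13, adjusted p = 8.78e-11). Wnt3 ranged from 955 to 1139.6 in the thalamus (median 1043) and from 35.2 to 59.4 in the cortex (median 40.5) (log2 difference 4.59, standard error 0.12, adjusted p = 3.81e-10). Both were without overlap, and Wnt2b (3.39 ± 0.15), Wnt4 (1.74 ± 0.095) and Wnt11 (1.59 ± 0.23) followed, while Wnt10a (-3.91 ± 0.18), Wnt10b (-2.65 ± 0.47), Wnt2 (-2.26 ± 0.20) and Wnt9a (-1.3 ± 0.075) were cortical. Wnt6 (-4.43 ± 0.64) was cortical with all rats and lay further to that side without rats 34 and 50 (log2 difference -5.52, adjusted p = 3.22e-05).

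The R-spondins, which raise Wnt receptor levels, divided, with Rspo4 (3.55 ± 0.46) thalamic and Rspo2 (-5.59 ± 0.20) and Rspo3 (-2.16 ± 0.16) cortical. Rspo2 lay between 738 and 1075 in the cortex (median 904) and between 9.55 and 27.0 in the thalamus (median 17.3). Receptors Fzd1 (1.9 ± 0.09), Fzd6 (2.01 ± 0.21) and Fzd8 (1.06 ± 0.12) were thalamic and Fzd4 (-0.98 ± 0.087) and Fzd3 (-0.60 ± 0.12) cortical. Of the nuclear end of the pathway, Tcf7l2 (5.94 ± 0.094), Lef1 (3.74 ± 0.092) and Ctnnb1 (0.87 ± 0.041) were thalamic, and Tcf7l1 (log2 difference 0.11, standard error 0.082, adjusted p = 0.248) and TCF7 (log2 difference -0.15, standard error 0.099, adjusted p = 0.214) did not pass. The feedback targets Axin2 (0.50 ± 0.051), Nkd1 (1.54 ± 0.077), Rnf43 (1.15 ± 0.061), Znrf3 (0.16 ± 0.06) and Lgr5 (1.33 ± 0.096) were higher in the thalamus, Nkd2 (-1.12 ± 0.10) and Apcdd1 (-0.60 ± 0.059) in the cortex. The secreted inhibitors Dkk3 (-3.0 ± 0.059) and Sfrp1 (-3.09 ± 0.46) were cortical and Sfrp2 (3.03 ± 0.15) thalamic. For Sfrp1 the thalamus values were highest in rats 34 and 50, and without them the difference was larger (log2 difference -4.03, adjusted p = 8.22e-07).

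Retinoid genes, which make, bind or remove retinoic acid, were cortical at 12 of 18 and thalamic at 4, with a median of -0.74. The degrading enzymes led the cortical side. Cyp26b1 lay between 823 and 1192 in the cortex (median 1000.3) and between 42.5 and 307 in the thalamus (median 98.2) (log2 difference -3.24, standard error 0.29, adjusted p = 3.64e-06). Cyp26a1 was present at 60.1 to 77.1 in the cortex and at most 2.50 in the thalamus. The synthetic enzymes Aldh1a2 (-2.94 ± 0.33), a meningeal marker, and Aldh1a3 (-1.5 ± 0.23) were cortical and Aldh1a1 (0.83 ± 0.085) thalamic. The nuclear receptor Rxrg (1.73 ± 0.11) was thalamic.

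Cell adhesion and guidance families had members on both sides, as had the loci tested in general, 34.2% thalamic and 28.7% cortical. Of 32 cadherins and protocadherins 10 were thalamic and 14 cortical, with Cdh19 (2.22 ± 0.11) and CDH8 (1.1 ± 0.058) against Cdh1 (-3.49 ± 0.28), Pcdh11x (-1.96 ± 0.12), Pcdh20 (-1.94 ± 0.11) and Cdh9 (-1.83 ± 0.15). Among Eph receptors and ephrins, Epha1 ranged from 233 to 358 in the thalamus (median 265) and from 2.32 to 11.3 in the cortex (median 8.27) (log2 difference 5.2, standard error 0.22, adjusted p = 1.17e-08). Epha8 (2.35 ± 0.099) was thalamic too, and the ligands Efnb2 (-2.66 ± 0.076) and Efna5 (-1.46 ± 0.059) were cortical, with 6 of 22 thalamic and 9 cortical. Sema3a, a secreted repellent, lay between 1696 and 2575 in the cortex (median 2040.1) and between 26.7 and 142 in the thalamus (median 44.4) (log2 difference -5.31, standard error 0.27, adjusted p = 3.86e-08). Sema3c (-2.49 ± 0.083) and its receptor gene Plxnd1 (-1.71 ± 0.078) were cortical as well, and the membrane semaphorins Sema4g (2.26 ± 0.047), Sema6a (1.41 ± 0.062), Sema6d (1.29 ± 0.057), Sema5a (1.14 ± 0.097) and Sema4d (1.12 ± 0.061) thalamic. In all 11 and 10 of 29 were thalamic and cortical. Of 19 netrin and Slit genes 7 were thalamic and 9 cortical. Robo3 (-4.76 ± 0.36), Unc5a (-2.37 ± 0.11), Unc5d (-2.03 ± 0.083), Slit2 (-1.49 ± 0.059) and Ntng2 (-1.49 ± 0.11) were cortical, and Draxin (3.1 ± 0.18), Unc5b (1.24 ± 0.072) and Ntn1 (0.81 ± 0.14) thalamic.

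Synaptic organizers bridge the synaptic cleft. Of 51 tested, 24 were cortical and 17 thalamic, against 28.7% and 34.2% of all loci. Cbln1, a secreted partner of neurexins, ranged from 2773 to 4187 in the thalamus (median 3158) and from 118 to 418 in the cortex (median 239.6) (log2 difference 3.81, standard error 0.18, adjusted p = 2.70e-08), and Cbln4 (1.27 ± 0.17) was also thalamic. Slitrk6 was the sole thalamic member of its family with a large difference, since Slitrk1 (-0.93 ± 0.06), Slitrk2 (-0.94 ± 0.10) and Slitrk5 (-1.47 ± 0.056) were cortical and Slitrk3 (0.20 ± 0.06) close to 0. LRRTM1 (2.02 ± 0.046) and Lrrtm2 (1.0 ± 0.078) were thalamic, Lrrtm3 (-1.62 ± 0.073) and Lrrtm4 (-1.16 ± 0.063) cortical. The neurexins Nrxn2 (log2 difference 0.01, standard error 0.11, adjusted p = 0.947) and Nrxn3 (log2 difference 0.13, standard error 0.099, adjusted p = 0.284) did not pass the test. Cntnap5b (-4.15 ± 0.18), Nxph3 (-2.49 ± 0.077) and Nptx1 (-4.06 ± 0.19) were cortical. The second Cntnap5b locus, with lower counts in the cortex, was thalamic (log2 difference 0.58).

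Of 23 matrix genes 11 were thalamic and 9 cortical, against 34.2% and 28.7% of all loci. Tnc, the glycoprotein tenascin-C, ranged from 2404 to 3576 in the thalamus (median 3163) and from 265 to 365 in the cortex (median 316) (log2 difference 3.3, standard error 0.064, adjusted p = 7.01e-11), and Hapln1, a link protein of perineuronal nets, lay between 1990.1 and 2627 in the cortex (median 2174) and between 248 and 422 in the thalamus (median 290.2) (log2 difference -2.87, standard error 0.13, adjusted p = 1.37e-08). The regions did not overlap at either. The net core protein Acan (0.42 ± 0.073) was higher in the thalamus.

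The vesicle release machinery leaned to the cortex, 32 of 67 cortical against 19 thalamic, with a median of -0.13. Among all loci 28.7% were cortical and 34.2% thalamic. Cplx2, a complexin that clamps vesicle fusion, lay between 60907 and 65668 in the cortex (median 63164) and between 4230.4 and 8195 in the thalamus (median 4664) (log2 difference -3.63, standard error 0.11, adjusted p = 8.88e-10). Its relative Cplx1 ranged from 38234 to 51786 in the thalamus (median 43662) and from 24568 to 29573 in the cortex (median 28343) (log2 difference 0.65, standard error 0.069, adjusted p = 1.25e-05). Doc2a (-2.67 ± 0.12), Synpr (-2.45 ± 0.13), Stx1a (-2.4 ± 0.058), Unc13b (-2.23 ± 0.06), Syn3 (-1.74 ± 0.10), Syn1 (-1.06 ± 0.039) and Snap25 (-1.0 ± 0.061) were cortical. Syt9, a fast calcium sensor, ranged from 4010.4 to 6068 in the thalamus (median 5161) and from 139 to 201 in the cortex (median 178) (log2 difference 4.86, standard error 0.081, adjusted p = 2.89e-11), and Rab3c (1.92 ± 0.087), Unc13c (1.39 ± 0.059), Syt7 (1.02 ± 0.056) and Sv2a (0.69 ± 0.042) were thalamic. 

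Axonal cytoskeleton genes leaned the other way, 16 of 28 thalamic against 6, where 34.2% and 28.7% of all loci were. Large differences were not more frequent, since 14.3% of the list were called at 2-fold or more against 17% of all loci. The median was 0.22. Nefh (1.06 ± 0.11), the heavy neurofilament, Dpysl3 (1.94 ± 0.058), Tubb3 (1.0 ± 0.049) and Gap43 (0.85 ± 0.039) were thalamic and the dendritic Map2 (-1.04 ± 0.058) cortical, while Nefl (log2 difference -0.02, standard error 0.058, adjusted p = 0.79) and Nefm (log2 difference 0.19, standard error 0.088, adjusted p = 0.0858) did not pass. A second Nefm locus with lower counts was cortical (log2 difference -0.47). Tubulin genes such as Tubb2a and Tubb2b are nearly identical in sequence, so their separate counts are uncertain.

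Immediate early genes, which neurons switch on within minutes of activity, were cortical at 23 of 28, with a median of -1.29 against 0.03 for all loci. Arc, a protein of active synapses, lay between 2529 and 11761 in the cortex (median 10347) and between 547 and 1042 in the thalamus (median 639) (log2 difference -3.58, standard error 0.26, adjusted p = 6.33e-07). Egr1 lay between 7008 and 13747 in the cortex (median 11768) and between 544 and 1108 in the thalamus (median 1034) (log2 difference -3.6, standard error 0.054, adjusted p = 1.29e-11), and Egr3 between 3259.9 and 5981 in the cortex (median 4108) and between 47.6 and 284 in the thalamus (median 88.1) (log2 difference -5.38, standard error 0.32, adjusted p = 1.42e-07). The cortex of rat 32 was the lowest of its region for Arc, Egr1, Egr2 and Fos and the highest for Egr3. Even there Arc, at 2529, was more than the thalamus of any rat. Egr4 (-4.43 ± 0.29), Fosl2 (-2.85 ± 0.12), Npas4 (-2.84 ± 0.12), Fosb (-2.45 ± 0.15), Nr4a1 (-2.32 ± 0.097), Junb (-2.23 ± 0.15), Homer1 (-1.99 ± 0.12) and Bdnf (-1.31 ± 0.095) were also cortical. Fos itself differed by little, from 426 to 1908 in the thalamus (median 1532) and from 629 to 2213 in the cortex (median 1997), with overlap (log2 difference -0.30, standard error 0.092, adjusted p = 0.0146). Dusp1 (0.42 ± 0.096), Gadd45b (0.36 ± 0.11) and Nptx2 (0.61 ± 0.073) were higher in the thalamus, and Jun (log2 difference 0.04, standard error 0.068, adjusted p = 0.599) and Jund (log2 difference 0.17, standard error 0.11, adjusted p = 0.192) did not pass. Dusp1 and Gadd45b each lost their call in 1 of the other analyses.

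All 22 oligodendrocyte and myelin genes tested were higher in the thalamus, with a median of 1.55, and 21 of them by 2-fold or more. MBP, myelin basic protein, ranged from 309143 to 439639 in the thalamus (median 357261) and from 90518 to 136478 in the cortex (median 107578) (log2 difference 1.77, standard error 0.059, adjusted p = 1.93e-09). Mobp lay at 134253 ± 17202 in the thalamus and 42469 ± 6139 in the cortex, and the lineage factor Sox10 at 3203 ± 410.3 in the thalamus and 1098 ± 197 in the cortex. Every thalamus library exceeded every cortex library in the sum of the list, 782662 at the lowest against 338168 at the highest. The spread over members was narrow, from Aspa (0.78 ± 0.066) to GJB1 (1.81 ± 0.065). Precursor cell genes were higher at 8 of 9 with a median of 0.42, from Pdgfra (0.15 ± 0.056) to Bcas1 (1.43 ± 0.046).

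Astrocyte genes divided, 9 of 18 thalamic and 7 cortical, against 34.2% and 28.7% of all loci. Agt, angiotensinogen, ranged from 14717 to 20002 in the thalamus (median 19556) and from 2954 to 3756 in the cortex (median 3279) (log2 difference 2.48, standard error 0.066, adjusted p = 4.26e-10), and Slc6a11, the GABA transporter GAT-3, from 22839.5 to 24371 in the thalamus (median 24038) and from 4776 to 5435 in the cortex (median 5065) (log2 difference 2.24, standard error 0.04, adjusted p = 4.96e-11). Gfap (0.82 ± 0.12) and Aqp4 (0.80 ± 0.049) were thalamic, and the glutamate transporters Slc1a2 (-1.13 ± 0.055) and Slc1a3 (-0.71 ± 0.048) and the connexin Gjb2 (-1.89 ± 0.19) cortical. Sox9 (log2 difference -0.01, standard error 0.10, adjusted p = 0.939) and S100b (log2 difference -0.06, standard error 0.064, adjusted p = 0.432) did not pass. Microglial genes were higher in the thalamus at 8 of 13, all by less than 2-fold, with a median of 0.31 and at most Tmem119 (0.54 ± 0.085). The regions' microglial sums ranged from 18239 to 23703 in the thalamus and from 17013 to 18062 in the cortex.

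Endothelial and mural genes were cortical at 9 of 14, none by 2-fold, from Vwf (-0.59 ± 0.065) to Rgs5 (-0.13 ± 0.046), and 3, Kcnj8 (0.53 ± 0.10), ABCC9 (0.26 ± 0.049) and Slc2a1 (0.11 ± 0.045), were thalamic. Of these 12 calls 7 held without the rat as a block, and without rats 34 and 50 there were 6 cortical and 2 thalamic calls. All 12 meningeal genes were cortical, with a median of -2.22, which became -2.75 without rats 34 and 50. Ptgds lay at 19101 ± 11885 in the thalamus and 62443 ± 8660.5 in the cortex and Col1a2 at 634 ± 724 in the thalamus and 3374 ± 499.7 in the cortex. Of the ependymal genes, which belong to the ciliated lining of the ventricles, 7 of 8 were thalamic. Tmem212 ranged from 95.6 to 284 in the thalamus (median 193) and from 0 to 3.35 in the cortex (median 0.472) (log2 difference 6.71, standard error 0.40, adjusted p = 1.41e-07) and was lowest in the thalamus of rats 50 and 38. Of 14 choroid plexus genes 5 were higher in the thalamus with all rats and 1, Aqp1, in the cortex, with a median of 1.23. Without rats 34 and 50, 4 were thalamic and 4 cortical, and the median was 0.03. Aqp1 was at -2.62 with all rats (log2 difference -4.69, adjusted p = 6.02e-06 without the 2 rats). Its thalamus values were 810 and 1204 in rats 34 and 50, above the cortex range of 273 to 510, and at most 19.7 in the other rats. F5 (log2 difference -2.6, adjusted p = 4.29e-04), Kcne2 (log2 difference -1.78, adjusted p = 8.74e-04) and Steap1 (log2 difference -1.07, adjusted p = 0.0295) were called in the cortex without rats 34 and 50 and not with all rats. Folr1 (log2 difference 3.19, standard error 0.59, adjusted p = 7.35e-04 with all rats, log2 difference 2.71, adjusted p = 0.0082 without rats 34 and 50) and Calml4 (log2 difference 1.98, adjusted p = 0.0086 without them) kept their call, as did Otx2 and Enpp2. Clic6, at the threshold with all rats (log2 difference 1.82, standard error 0.73, adjusted p = 0.0496), lost it (log2 difference 0.54, adjusted p = 0.437). Ttr, transthyretin, ranged from 158 to 97841 in the thalamus (median 738) and from 226 to 21088 in the cortex (median 1701) (log2 difference 0.07, standard error 1.10, adjusted p = 0.959). 

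Markers shared by most neurons were thalamic at 7 of 15 and cortical at 5, 3 of them by 2-fold or more. Among all loci 34.2% were thalamic and 28.7% cortical. Uchl1 (0.70 ± 0.051) and Elavl2 (0.78 ± 0.076) were thalamic. Rbfox3, the nuclear protein NeuN, lay between 9314 and 12791 in the cortex (median 11259) and between 2812 and 3396 in the thalamus (median 3171) (log2 difference -1.84, standard error 0.053, adjusted p = 7.43e-10) and had the largest difference of the list. Syp, synaptophysin, did not pass (log2 difference 0.13, standard error 0.053, adjusted p = 0.0521). Of 16 housekeeping genes 7 were higher in the thalamus and 1, Tfrc (-0.20 ± 0.051), in the cortex, none by 2-fold, with a median of 0.12. Actb (log2 difference -0.07, standard error 0.052, adjusted p = 0.246) and Tbp (log2 difference 0.01, standard error 0.059, adjusted p = 0.878) did not pass.

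Related genes were also set side by side in 25 pairs chosen by hand from these families. Of these pairs, 14 were called in opposite directions and 6 in the same direction. Of all loci, 34.2% were higher in the thalamus and 28.7% in the cortex. The pairs were not drawn at random, so these counts describe the choice and test nothing about related genes in general. In 13 of the 14 the first-named gene was thalamic, as the pairs were mostly written with the known thalamic gene first, so the direction is no finding. Within rats, the difference of Lhx9 exceeded that of Lhx6 by 9.88 ± 1.0 (SD) log2 units, and that of Synpo2 exceeded Synpo by 8.44 ± 0.27 (SD), in 6 of 6 rats each. Htr7 against Htr2a gave 5.17 ± 0.50 (SD), Ntng1 against Ntng2 5.61 ± 0.29 (SD), Pde1c against Pde1a 5.0 ± 0.35 (SD) and Cplx1 against Cplx2 4.28 ± 0.43 (SD). Adcy1 and Adcy8, calmodulin-stimulated adenylyl cyclases, were opposed the other way, with Adcy1 cortical and Adcy8 thalamic, and within rats the difference of Adcy1 minus that of Adcy8 was -2.77 ± 0.40 (SD). Pcp4 and Pcp4l1, small calmodulin-binding proteins, were both thalamic. Pcp4 ranged from 33660.2 to 54052 in the thalamus (median 44243) and from 2794 to 3743 in the cortex (median 3325) (log2 difference 3.73, standard error 0.12, adjusted p = 1.26e-09). Vamp1 and Vamp2 showed no called difference (log2 difference -0.14, standard error 0.092, adjusted p = 0.206 and log2 difference -0.05, standard error 0.041, adjusted p = 0.276).

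**Figure D5:**
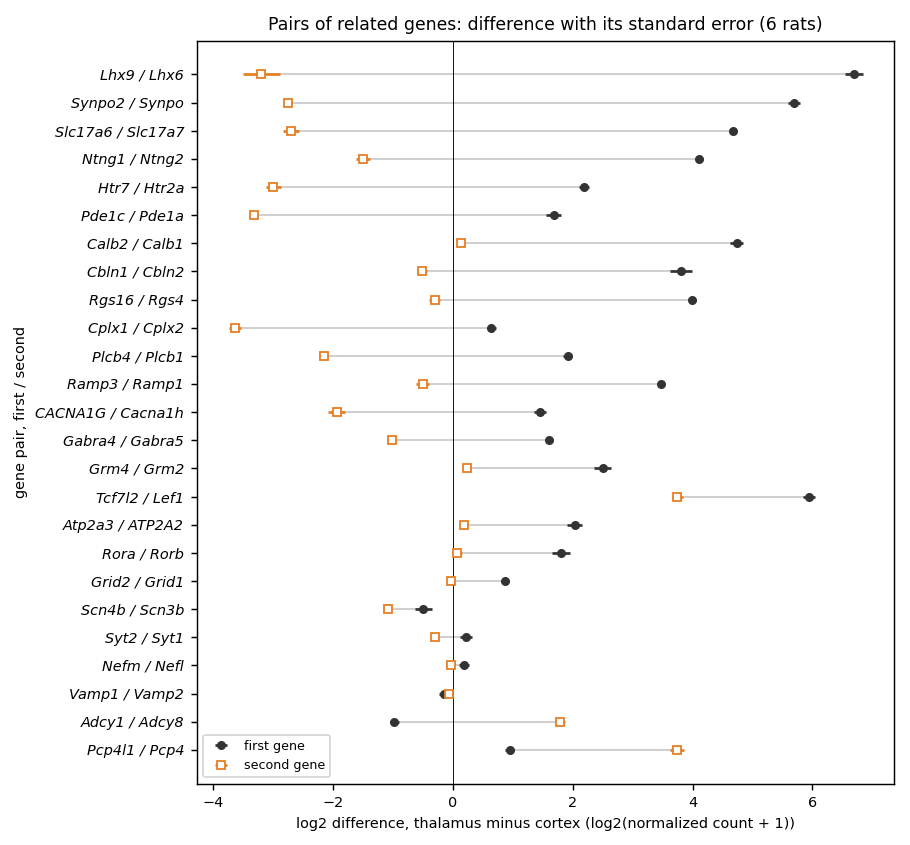
Log2 differences, thalamus minus cortex, with standard errors over 6 rats, of the first gene (filled circles) and the second gene (open squares) of 25 related pairs, ordered by the value of the first minus that of the second. At the top Lhx9 (6.69) and Lhx6 (-3.19) lie on opposite sides of 0, and near the bottom the Adcy1 and Adcy8 pair lies the other way round. In the last pair Pcp4l1 (0.95) lies to the left of Pcp4 (3.73), both above 0.

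Variation among rats within a region was small for most genes, with a median SD of 0.12 log2 units in the thalamus and 0.11 in the cortex over loci with a regional mean of at least 100. The 20 most variable genes of the thalamus were led by choroid plexus genes, among them Ttr, Cldn2, F5, Kcnj13, Aqp1 and Kl, each highest in rat 50. Ttr had an SD of 4.12 log2 units there, from 158 in rat 32 to 97841 in rat 50. In the cortex, Ttr was again first, highest in rat 26 at 21088. The 20 most variable genes of the cortex also held Sdk2 (1.31), Tal2 (1.06), Fcrl2 (0.96), Cyr61 (0.93) and Htra4 (0.88), with these SDs in log2 units, and below them Arc (0.85), Btg2 (0.80) and Egr2 (0.79). Arc, Btg2 and Egr2 were lowest in rat 32, as were Tal2 and Cyr61, and Sdk2 and Fcrl2 were highest there.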

How the data were processed

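Per the labels and the study's methods, polyadenylated RNA of each region was made into stranded libraries, and the authors aligned reads with TopHat2 2.0.11 and Bowtie2 2.2.2, assembled transcripts with Cufflinks 2.2.1 and counted with Cuffdiff. The deposited values are a signal per locus, fragment counts divided by a size factor of each library, in a table of 42334 loci with 15693 that carry no gene name (1.9% to 2.23% of the counts), which were left out of the main comparison. In each library the low values fell on whole steps (within 0.05 steps), so a step was taken as 1 fragment. Intervals and floors of 3 fragments cover counting error only.

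Regions were compared by limma 3.58.1 in R 4.3.3 (lmFit, then eBayes with trend=TRUE) on log2(normalized count + 1), at loci whose mean over the 12 libraries was 10 or more, with the rat as a block and Benjamini-Hochberg adjustment. Rat numbers in the labels pair the regions of an animal. After removing region means, the 2 libraries of a rat correlated with a median of 0.163 (0.0074 to 0.288), over 0.1 in 5 of 6 rats. Libraries of different rats had a median of -0.051 (-0.302 to 0.295), a range that covers the values of the same rat. The thalamus library correlated best with the cortex library of its own rat in 3 of 6 rats, so the pairing rests on the labels. No libraries were alike within counting noise. P-values measure the spread over 6 animals. The fit was tested on simulated data with known differences. Alternatives were no block, TMM and upper quartile scaling, other filters, pseudocounts and thresholds, leaving out each rat, and edgeR 4.0.16, DESeq2 1.42.0 and limma-voom on the recovered fragments. Members and lists were chosen with earlier results of these data known. Named genes are the 12 largest differences in each direction without overlap and with a mean of at least 100 in the higher region, members of the lists and of the pairs. Some genes among them, counted in the lists, are not reported here, and pairs that hold one were left out. A named member outside the 3 largest of its list was chosen after its values were seen. Where a name has several loci, the locus with the highest mean stands for it, except among these largest differences, which were picked by locus. Promoters were matched by symbol to RefSeq, GRCr8. Figures were drawn with matplotlib 3.10.9 in Python 3.11.15.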

Additional observations from a re-analysis of the deposited data

Results flagged for a closer look

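In 4 of 64 groups of 6 libraries tested, the library farthest out was separated from the others by more than Dixon's 95% limit, where chance alone separates about 1 in 20 groups. The sum of cortical transcription factors in the thalamus of rat 38 was 49254, against 40071 to 43493 in the other 5 thalamus libraries. The sum of cortical layer genes in the cortex of rat 50 was 73015, against 69083 to 69472 in the other 5. Meningeal markers summed to 53845 in the thalamus of rat 34, against 14619 to 28333. Hypothalamic markers summed to 1134 in the cortex of rat 55, against 232 to 298, and Oxt (539.8) and Avp (332) were each at their highest of the 12 libraries there.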

How the results depend on the processing

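The loci higher in the thalamus numbered 4380 to 6542 over the other analyses and those higher in the cortex 3666 to 6410. At least 2-fold differences numbered 1009 to 2098 and 986 to 2363. When loci without a gene name were included, 2098 were at least 2-fold higher in the thalamus and 2363 in the cortex. Leaving out each rat in turn gave 4937 to 5306, 4112 to 4432, 1373 to 1408 and 1243 to 1285. Without the rat as a block, 5278 and 4415 loci were called, and 9486 of the 9810 calls were shared. edgeR on the recovered fragments called 9749 loci and shared 9422, DESeq2 called 9352 and shared 9081, TMM scaling called 9764 and shared 9440, and without rats 34 and 50, chosen after seeing the data, 8210 were called and 8080 shared, none in the opposite direction. Scaling by TMM moved the median of all loci from 0.03 to 0.0019. The next counts cover 255 of the named genes: the largest differences, the 3 largest of each list in each direction, and the pairs. Of these, 244 to 255 kept direction and call in any of these analyses, except that with a mean of at least 50 only 240 were tested, of which 239 did. The other genes named in the text are not in these counts, and some changed their call, as given above for Clic6, F5, Kcne2 and Steap1. Signs turned at genes that were not called. Leaving out each rat gave -0.00677 to 0.128 for Rorb, -0.0600 to 0.0276 for Nefl and -0.0487 to 0.00615 for Grid1. Genes with few fragments in a region rest on counting intervals, and those with none on the limit of 3 fragments.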
